A study of Mus musculus with 2 samples.

Results

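Semaphorins, plexins and neuropilins are the ligands and receptors of a guidance system that steers axons, blood vessels and migrating cells. The genes were chosen by symbol alone, as every mouse gene named Sema3 to Sema7 with a letter, every plexin gene and both neuropilins, which gave 31 of the 31053 genes counted. They comprised 20 semaphorins, 9 plexins and 2 neuropilins. The rule itself uses no expression value, but the family was picked for description with earlier results of these data known.

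Class 3 semaphorins are secreted, most semaphorins of classes 4 to 6 are transmembrane proteins, and Sema7a is held to the membrane by a lipid anchor. Plexins are the signalling receptors, and most secreted semaphorins reach A-type plexins through a neuropilin that binds the ligand. In the developing eye the system is known for guiding retinal ganglion cell axons, for layering neurites of amacrine cells and for keeping vessels out of tissue that should lack them.

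Cells of e15.5 mouse eye cups were counted by droplet sequencing in 1 library per genotype, each made from 3 pooled samples after cornea, lens and optic nerve had been taken away. Both groups carried floxed alleles of Myrf, a transcription factor gene that the study placed in the retinal pigment epithelium (RPE). Control embryos were Myrf fl/fl. Mutant embryos, Rx>cre Myrf fl/fl, also had Cre recombinase under Rx regulatory sequence, which is active in the early eye field. With 1 library per genotype no test between genotypes was possible, and each interval given here covers counting error only, not the spread between embryos or preparations.

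The control library held 13017 barcodes and the mutant library 13880, with medians of 9339 and 8702 unique molecular identifiers (UMIs, 1 per captured transcript). Filters kept 11518 and 12576 cells, and 69 barcodes occurred in both libraries. Myrf was counted 293 times (75.7 CPM) in control RPE-like cells and 55 times (26.4 CPM) in mutant RPE-like cells, where CPM is UMIs of a gene per 1000000 UMIs of the cells summed. A Y-linked UMI was found in 3 control cells (0.0260%) against 41.7% of mutant cells, so the sex of the pooled embryos differed between the libraries and cannot be told apart from genotype except within cells of 1 kind. Clusters were named from marker genes, and 15 classes were named, of which 11 had 100 or more cells in each library. The RPE-like class held 377 control and 209 mutant cells, and of its 11 markers Rpe65 was at 0 in both libraries. Erythroid-like cells, which are filled with haemoglobin RNA and should lack guidance genes, are given as a reference for free RNA. Retinal ganglion markers summed to 24.1 CPM in control erythroid-like cells and 226 CPM in control immune-like cells. Erythroid markers took up 921676 CPM in the control erythroid-like cells, which lowers the CPM of every other gene there. This reference may thus not hold in every class, and the source of the markers was not tested. Over all 31 genes erythroid-like cells held 44 control and 89 mutant UMIs, with no gene above 1.18 CPM in the control or 1.76 CPM in the mutant.

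Several of the genes are neighbours on the genome (GENCODE M21, GRCm38). Sema3d, Sema3a, Sema3e and Sema3c lie in that order within 5346884 bases of chromosome 5, from 12383385 to 17730268. Sema3b (chr9:107597674-107609229, minus strand) and Sema3f (chr9:107681500-107710475, minus strand) are 72270 bases apart. Plxnb3 and Plxna3 are both on the X chromosome, and the 31 genes as a whole occupy 17 chromosomes.

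RefSeq promoter windows (GRCm38.p6, 250 bases before to 50 after the start) were at hand for 26 of the 31 genes, and Sema3b, Sema3f, Sema6a, Plxna1 and Plxna4 had none. The windows shown belong to Sema3c, a secreted ligand with 3 separate sites of expression, and to the ligand and receptor pair Sema3e and Plxnd1, whose levels are described below. They are chr5:17574566-17574865 (plus strand), chr5:14025026-14025325 (plus strand) and chr6:115994956-115995255 (minus strand). Capitals mark matches, on either strand, to ACAAAG or ACAATG (as bound by SOX factors), CTGGCAC or CTGGTAC (the core bound by MYRF), and CACGTG or CATGTG (E-boxes, as bound by MITF).
Sema3c: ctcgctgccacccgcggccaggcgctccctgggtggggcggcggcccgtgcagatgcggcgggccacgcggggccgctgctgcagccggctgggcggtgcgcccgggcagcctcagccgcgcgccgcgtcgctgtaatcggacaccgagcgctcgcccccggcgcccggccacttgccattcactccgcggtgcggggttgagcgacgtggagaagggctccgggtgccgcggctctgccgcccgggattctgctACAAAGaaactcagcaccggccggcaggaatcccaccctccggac
Sema3e: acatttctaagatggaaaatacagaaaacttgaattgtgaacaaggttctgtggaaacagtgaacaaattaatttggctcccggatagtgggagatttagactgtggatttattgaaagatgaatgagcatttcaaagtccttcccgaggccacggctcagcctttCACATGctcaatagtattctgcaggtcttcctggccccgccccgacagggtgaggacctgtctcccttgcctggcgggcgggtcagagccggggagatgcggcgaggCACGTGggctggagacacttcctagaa
Plxnd1: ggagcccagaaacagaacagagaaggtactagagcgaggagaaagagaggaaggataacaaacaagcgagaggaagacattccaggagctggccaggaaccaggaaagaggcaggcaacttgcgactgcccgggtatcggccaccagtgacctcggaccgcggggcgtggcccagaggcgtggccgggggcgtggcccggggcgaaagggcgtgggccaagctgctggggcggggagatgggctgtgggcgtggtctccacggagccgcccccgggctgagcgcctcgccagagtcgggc
The Sema3c window had 1 match, to ACAAAG, the Sema3e window had 1 to each E-box, and the Plxnd1 window had none. Of all 32851 windows, 18.7% held ACAAAG, 12.6% ACAATG, 5.01% CTGGCAC, 2.24% CTGGTAC, 7.15% CACGTG and 14.2% CATGTG. Among the 37 windows of these genes the counts were 8, 5, 3, 2, 3 and 3. The matches are letters in a window and were not set against any binding data.

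The family was spread over the eye cup by cell class, and the class with the highest level was the same in both libraries for 26 of the 31 genes, as the heat maps of class levels show. The 5 exceptions were Plxna4, Plxnb2, Sema4f, Sema6b and Sema6c. In the control the highest class stood clear of all others, its interval above theirs, for genes such as Plxnd1, Sema3b, Sema5a and Sema6d, whereas Sema6a, Plxna1 and Sema4c were shared among classes with overlapping intervals. Because 1 tag is counted per transcript end, CPM were not divided by gene length, and levels are compared between classes for 1 gene at a time.

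**Figure D1:**
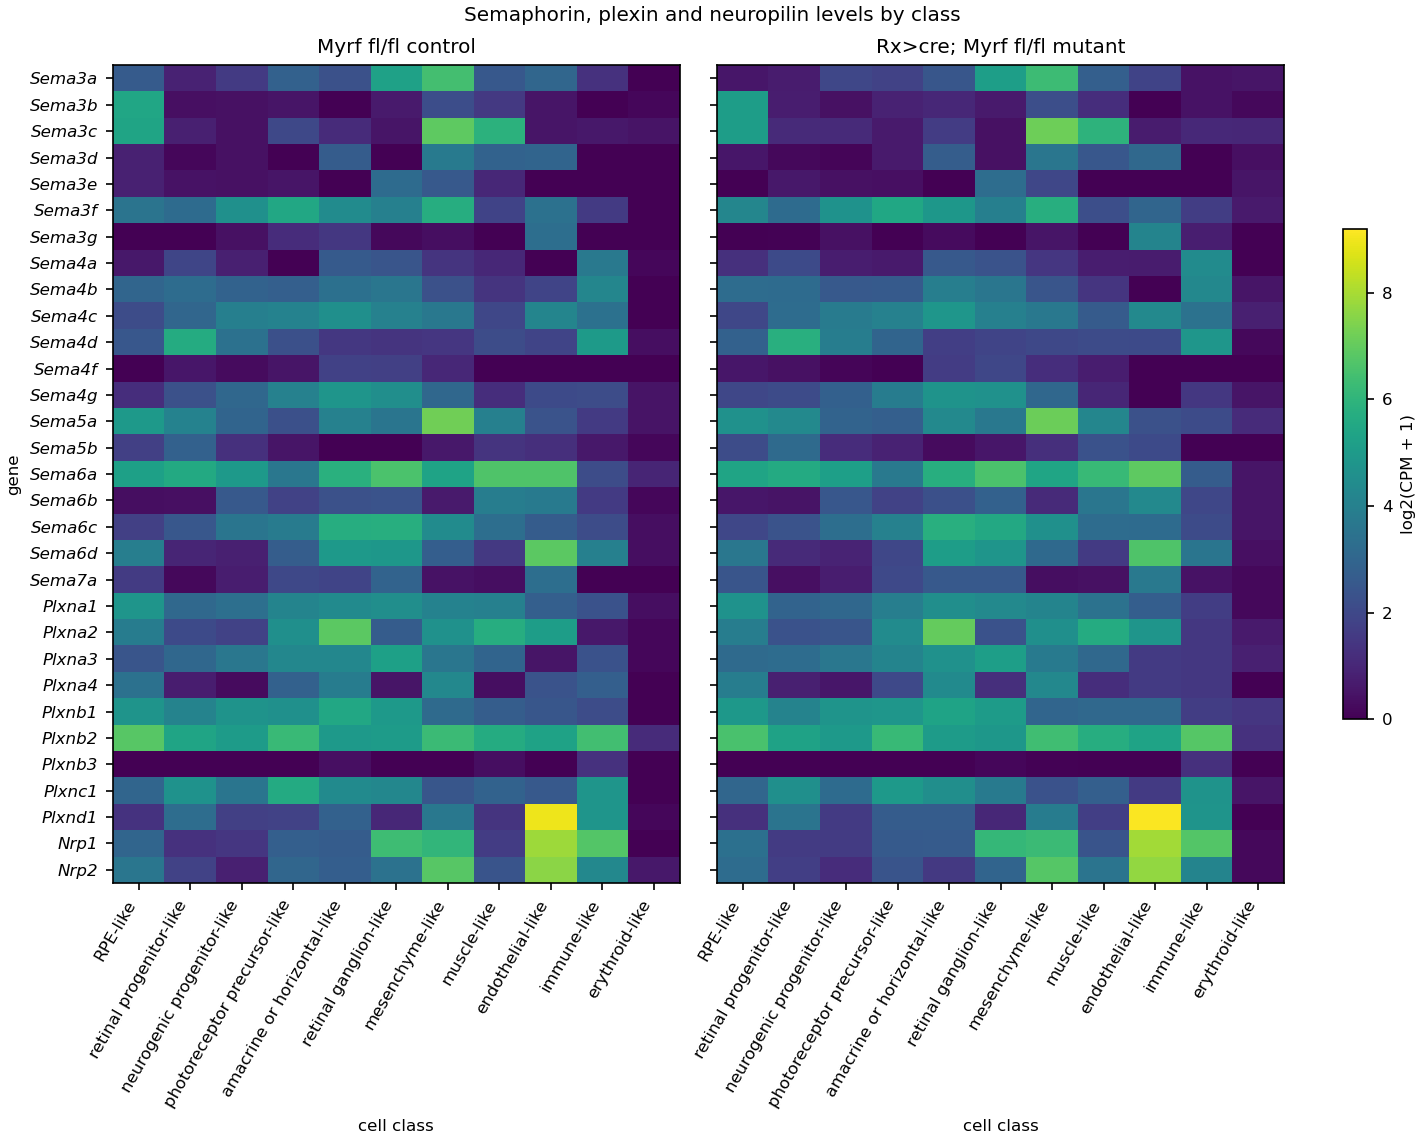
Levels of the 31 genes (rows) in the 11 classes (columns) of the control library (left) and the mutant library (right), as log2(CPM + 1) with 1 colour scale. Plxnd1, Nrp1 and Nrp2 are brightest in the endothelial-like column, Sema3b in the RPE-like column, and the erythroid-like column is dark throughout.

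Sema3b, a secreted ligand that binds neuropilins, was the family member most restricted to RPE-like cells. It measured 42.4 CPM (95% Poisson interval 36.1 to 49.4) in the control and 34.1 CPM (26.6 to 43.0) in the mutant. The next of the 11 classes in the control was mesenchyme-like cells at 3.52 CPM, so the RPE-like level was 12.03 times as high, and in retinal progenitor-like cells the level was 0.305 CPM. A Sema3b UMI was present in 27.6% of RPE-like cells in the control library and 22.5% in the mutant one, against 0.209% and 0.238% of erythroid-like cells. The median cell of the control held 7173 UMIs in the RPE-like class and 16815.5 in the erythroid-like class. Outside the 11 classes, glia or Schwann precursor-like cells also had Sema3b, at 41.3 CPM in 38 control cells and 48.1 CPM in 37 mutant cells. Thinning to 2000 UMIs a cell used only the cells with at least 2000 UMIs, 254 control and 138 mutant ones in the RPE-like class. Of these, 7.48% in the control library and 5.80% in the mutant one then held a Sema3b UMI.

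Sema3c, a ligand known for its part in neural crest and outflow tract development, had 3 sites in the control: mesenchyme-like cells (120 CPM), muscle-like cells (59.2 CPM) and RPE-like cells (40.0 CPM). The same order held in the mutant, at 141, 60.8 and 34.1 CPM. In all retinal neuron and progenitor classes it was at or below 2.96 CPM. Sema3a, the classical repellent of axons that bear Nrp1, was highest in mesenchyme-like cells (85.4 CPM control, 78.5 CPM mutant) and second in retinal ganglion-like cells (37.2 and 35.0 CPM). Within the ganglion-like class it was higher in the cluster led by Sncg and Nrn1 (67.9 CPM control, 64.5 CPM mutant) than in the cluster led by Isl1 and Igfbpl1 (17.2 and 18.4 CPM), and these intervals did not overlap in either library.

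Sema3f, the secreted ligand that acts mainly through Nrp2, was shared between mesenchyme-like cells (52.1 CPM control, 53.1 CPM mutant) and photoreceptor precursor-like cells (44.3 and 44.0 CPM), with 10.6 CPM in control RPE-like cells. Its neighbour on chromosome 9, Sema3b, thus had a different class order in the same libraries. Sema3e, the secreted ligand that binds plexin D1 without a neuropilin, was a low gene with its highest level in retinal ganglion-like cells (8.36 CPM control, 8.89 CPM mutant). Sema3d measured 12.9 and 11.3 CPM in mesenchyme-like cells, and Sema3g 9.02 and 16.7 CPM in endothelial-like cells on 20 and 26 UMIs.

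**Figure D2:**
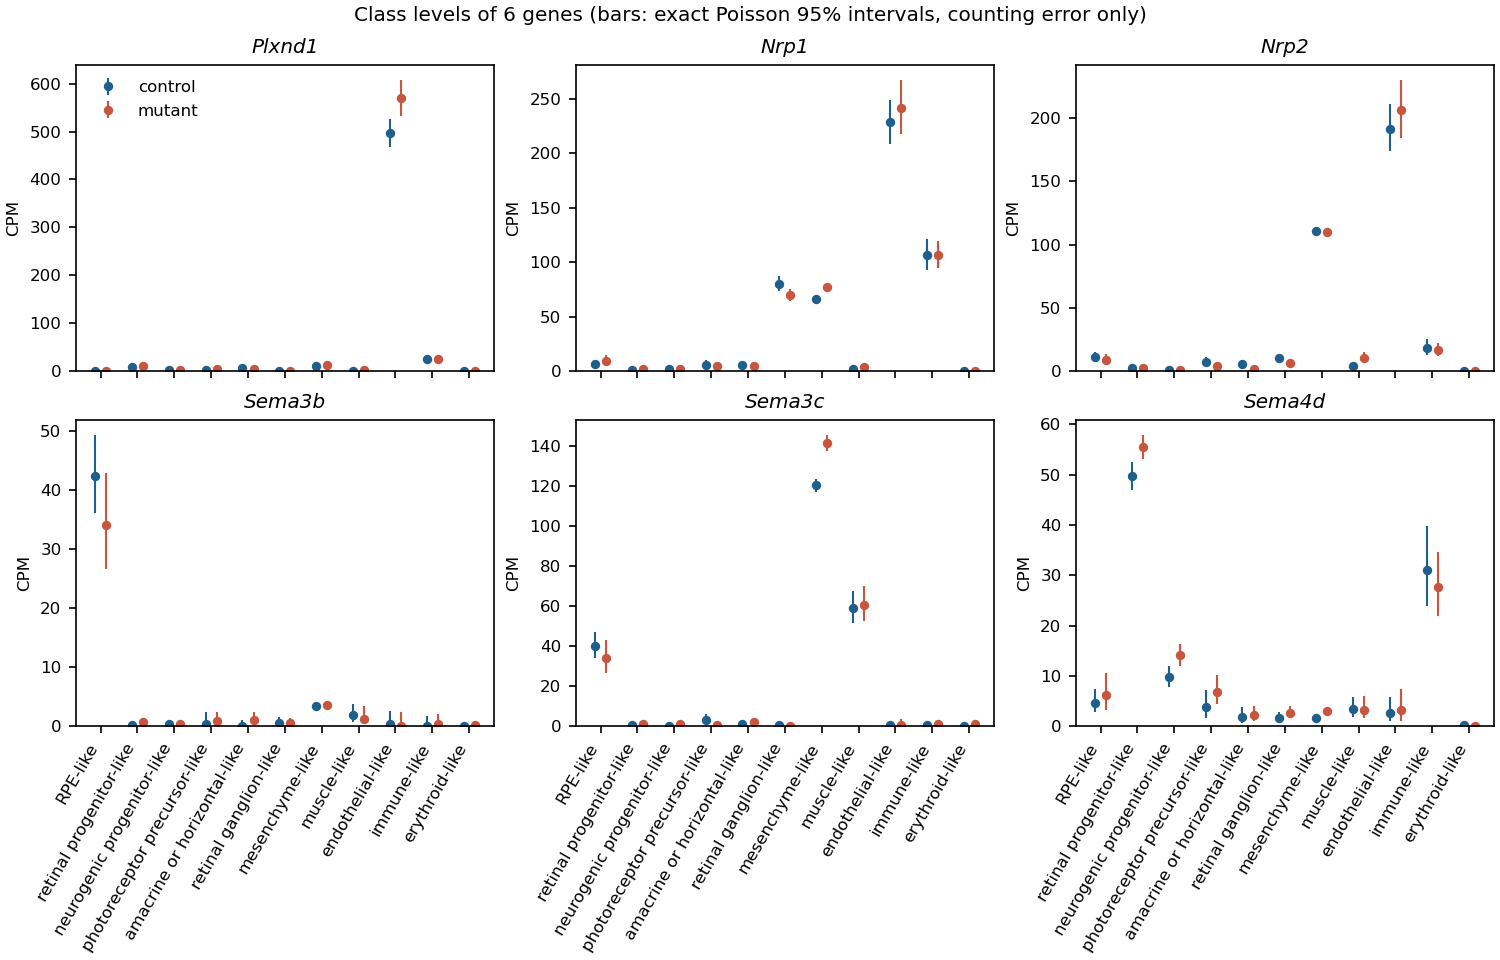
Levels in CPM of Plxnd1, Nrp1, Nrp2, Sema3b, Sema3c and Sema4d (panels) in the 11 classes of the control (blue) and mutant (red) libraries, with exact Poisson 95% intervals that cover counting error only. Plxnd1 reaches 496 and 569 CPM in endothelial-like cells, and Sema4d is highest in retinal progenitor-like cells.

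Among the transmembrane semaphorins, Sema4d, a ligand of plexin B1 known also from lymphocytes, marked retinal progenitor-like cells at 49.7 CPM (47.0 to 52.4) in the control, and the mutant had 55.4 CPM (53.0 to 57.9). It was lower in neurogenic progenitor-like cells (9.81 and 14.1 CPM) and in retinal ganglion-like cells (1.61 and 2.74 CPM), while immune-like cells had 31.04 and 27.74 CPM. Sema5b shared the progenitor peak at a lower level (6.19 and 8.06 CPM). Its relative Sema5a, known with Sema5b for confining neurites to the inner layers of the retina, was instead highest in mesenchyme-like cells (146 and 138 CPM) and was second in control RPE-like cells (29.97 CPM).

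Of the other class 4 members, Sema4a and Sema4b were highest in immune-like cells (12.3 and 17.7 CPM in the control), and Sema4c and Sema4g in amacrine or horizontal-like cells (23.0 and 26.6 CPM). In the control the interval of each of these peaks overlapped that of another class. Sema4c had 17.1 CPM in endothelial-like cells and Sema4g 22.4 CPM in retinal ganglion-like cells. Sema4f stayed at or below 2.85 CPM in the 11 classes of either library. Sema6a, a transmembrane ligand of A-type plexins that sorts retinal neurites, was broad, with 101.5 CPM in endothelial-like, 100.4 CPM in muscle-like and 95.3 CPM in retinal ganglion-like cells of the control, a trio whose intervals overlapped. Sema6c was level between retinal ganglion-like (52.9 CPM) and amacrine or horizontal-like cells (52.6 CPM) of the control. Sema6d was highest in endothelial-like cells (118 CPM control, 101 CPM mutant), Sema6b in muscle-like cells of the control (13.7 CPM), and Sema7a, a ligand of plexin C1 and of integrins, in endothelial-like cells (9.02 and 12.2 CPM). The Sema6b and Sema7a peaks also overlapped other classes in the control. The next classes were endothelial-like cells for Sema6b (12.6 CPM) and retinal ganglion-like cells for Sema7a (6.60 CPM).

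On the receptor side, Plxnd1, the plexin of developing vessels, was the gene most confined to 1 class. Endothelial-like cells had 1100 UMIs and 496 CPM (467 to 526) in the control and 888 UMIs and 569 CPM (532 to 608) in the mutant. The second class in the control, immune-like cells, had 26.6 CPM, and the fold between them was 18.7. A Plxnd1 UMI was found in 80.6% of control and 83.1% of mutant endothelial-like cells, against 0.209% and 0% of erythroid-like cells (0 of 421 allows up to 0.872% by the exact binomial interval). Its ligand Sema3e was at 0 in endothelial-like cells of both libraries.

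Both neuropilins peaked in endothelial-like cells too. Nrp1, which also serves VEGF, measured 228 CPM (control) and 242 CPM (mutant), and Nrp2 192 and 206 CPM. They then parted. Nrp1 was next in immune-like (106 and 107 CPM), retinal ganglion-like (80.5 and 69.7 CPM) and mesenchyme-like cells (66.3 and 77.0 CPM), while Nrp2 was next in mesenchyme-like cells (111 and 110 CPM) and low in retinal ganglion-like cells (10.1 and 6.73 CPM). Neither exceeded 2.48 CPM in retinal or neurogenic progenitor-like cells of either library. Among the small classes, melanocyte-like cells had Nrp1 at 206 CPM in the control (50 cells) and 146 CPM in the mutant (30 cells).

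The A-type plexins, the signalling partners of neuropilins and of class 6 ligands, were divided among retinal neurons and other classes. Plxna2 was highest in amacrine or horizontal-like cells (118 CPM control, 130 CPM mutant), and within that class it was at 163 and 178 CPM in the cluster led by Nrxn3 and Onecut2 against 27.6 and 27.9 CPM in the cluster led by Krt73 and Ptf1a. Plxna3 was highest in retinal ganglion-like cells (36.5 and 34.3 CPM). Plxna4, a partner of Nrp1 in the response to Sema3a, was nearly lacking there (0.440 and 1.37 CPM) and was found in mesenchyme-like (18.7 and 18.5 CPM) and amacrine or horizontal-like cells (13.4 and 19.9 CPM). Plxna1 was highest in RPE-like cells (26.6 and 25.0 CPM), though in the control its interval overlapped that of retinal ganglion-like cells at 22.1 CPM.

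Among B-type plexins, the receptors of class 4 semaphorins, Plxnb2 was the receptor with the most UMIs in RPE-like cells (111 CPM control, 93.1 CPM mutant). Immune-like cells had 84.7 and 109 CPM, and erythroid-like cells 1.18 and 1.47 CPM. Plxnb1 was highest in amacrine or horizontal-like cells (44.5 and 39.4 CPM). Plxnb3 had 23 UMIs in all kept control cells and 20 in the mutant, of which 16 and 14 were in glia or Schwann precursor-like cells. Plxnc1, the receptor of Sema7a, was highest of the 11 classes in photoreceptor precursor-like cells, and melanocyte-like cells had 178 CPM (control) and 157 CPM (mutant).

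In the neural retina Plxnb2 and Sema6a were found in progenitors and neurons alike. Plxnb2 measured 40.5 CPM in control retinal progenitor-like cells, 31.7 CPM in neurogenic progenitor-like cells and 75.2 CPM in photoreceptor precursor-like cells, and in the mutant 38.2, 29.7 and 71.8 CPM. Sema6a measured 46.9 CPM in control retinal progenitor-like, 29.6 CPM in neurogenic progenitor-like and 56.8 CPM in amacrine or horizontal-like cells, and in the mutant 47.8, 35.1 and 53.6 CPM. Plxnb1 was at 25.6 and 26.0 CPM in neurogenic progenitor-like cells.

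Mesenchyme-like cells held 28 of the 31 genes at 50 or more UMIs over both libraries, and the genes were unequally placed among the 6 clusters of that class, as the plot by cluster shows. Clusters 5 and 6 scored highest for the pericyte list and were merged into this class. Sema5a ranged in the control from 42.0 CPM in cluster 7, led by Scx and Tnmd as in tendon, to 322 CPM in cluster 8, led by Kera and Matn4 as in corneal stroma. Sema3c had the same top cluster (228 CPM), but Sema3a was highest in cluster 4 (205 CPM), led by Osr2 and Mfap5. The receptor Nrp2 had another order, with 221 CPM in cluster 6 and 179 CPM in cluster 5 against 69.7 CPM in cluster 8, and Plxna4 was at 1.49 CPM in cluster 4 against 30.7 CPM in cluster 8. The ranking of the top cluster was repeated in the mutant for Sema3a, Sema3c and Sema5a, while in the mutant both Nrp2 (191 CPM) and Plxna4 (28.7 CPM) were highest in cluster 5.

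**Figure D3:**
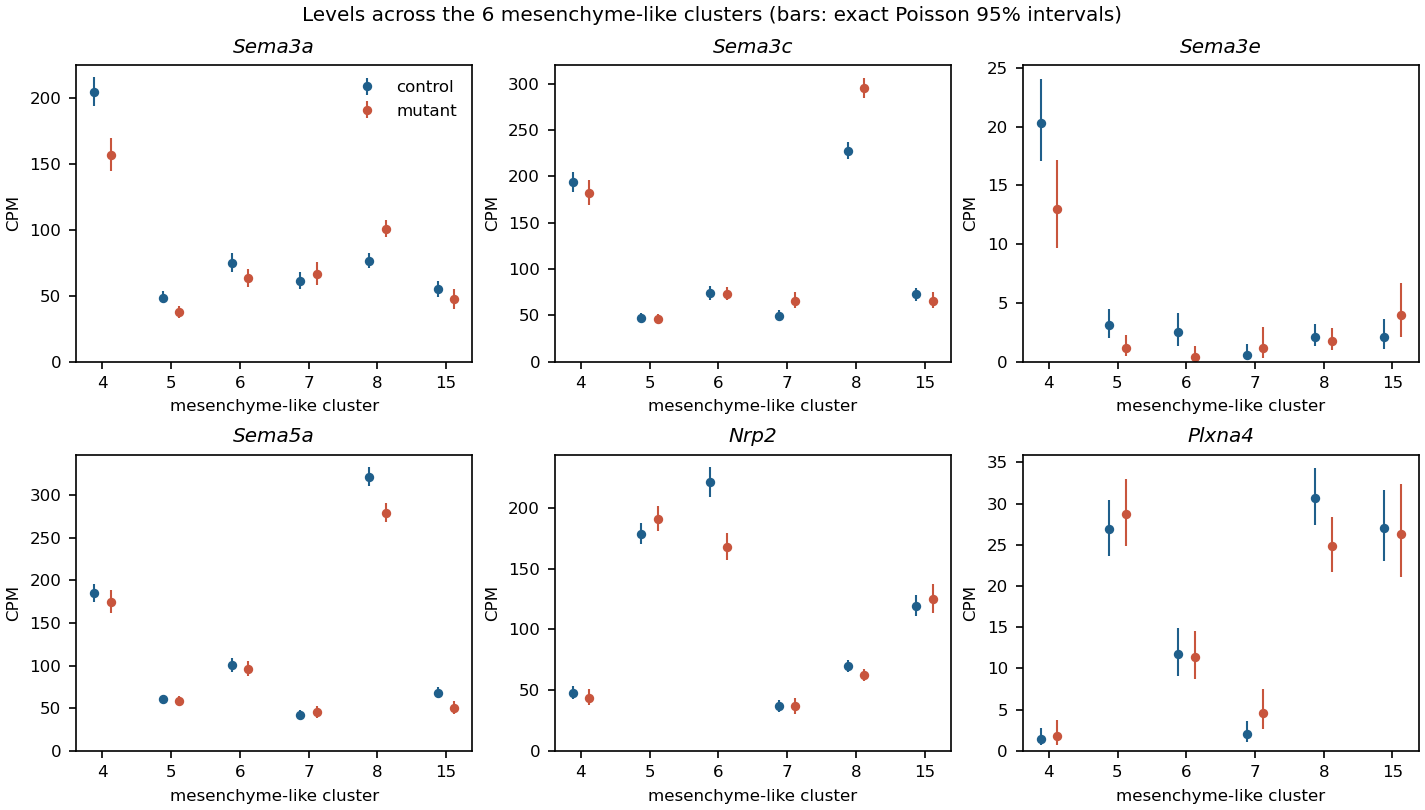
Levels in CPM of Sema3a, Sema3c, Sema3e, Sema5a, Nrp2 and Plxna4 (panels) in the 6 mesenchyme-like clusters (horizontal axis, cluster number) of the control (blue) and mutant (red) libraries, with exact Poisson 95% intervals. Sema3e is concentrated in cluster 4, with 20.3 CPM (control) and 13.0 CPM (mutant).

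The comparison of genotypes asks whether loss of Myrf in the eye field goes with other guidance genes in RPE and its neighbours. A gene was compared in a class where it had 50 or more UMIs over both libraries, and it was called when the ratio of mutant to control CPM was at least 1.5 in either direction and its 95% interval left out 1. Of 341 gene and class pairs 150 could be compared, 29 genes in at least 1 class, and Plxnb3 and Sema3g in none. Called higher were 6 pairs (4.00%), against a background over all genes of the same 10 classes of 2.21%, and called lower were 3 (2.00%), against 1.77%. Ratios lay between 1/1.5 and 1.5 for 138 of the 150 pairs.

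**Figure D4:**
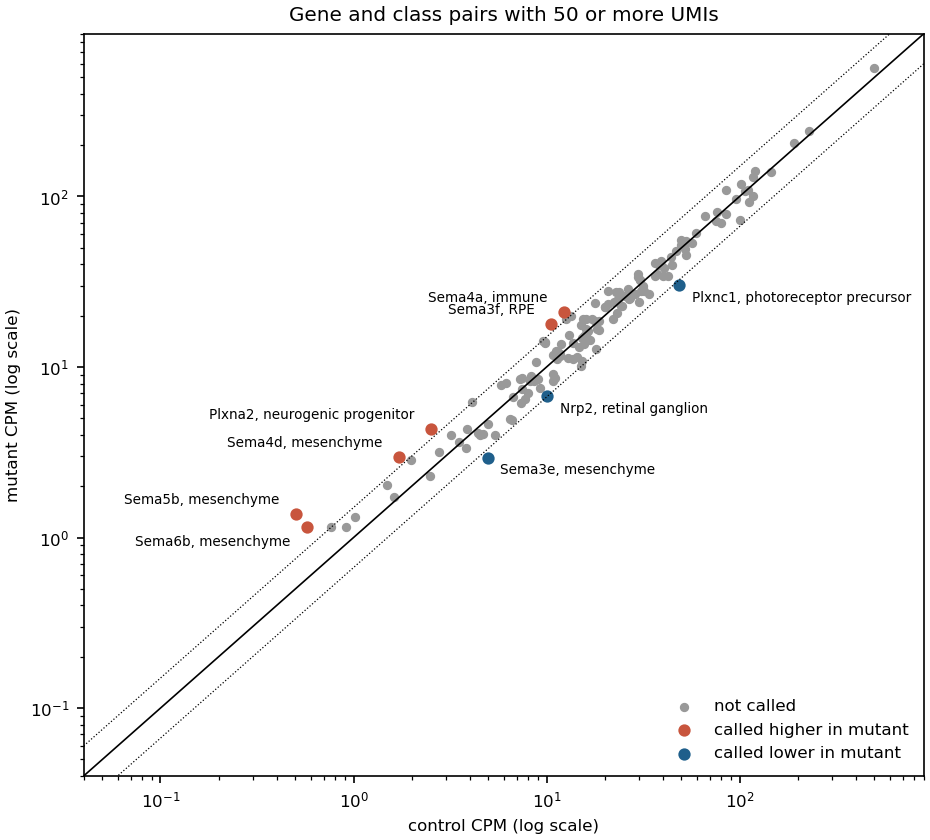
Control CPM against mutant CPM, both on log scales, for the 150 gene and class pairs with 50 or more UMIs. The solid line marks equal levels, dotted lines mark 1.5 times in either direction, and the 6 pairs called higher (red) and 3 called lower (blue) are named.

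Myrf levels were computed for RPE-like cells only, where the gene was lower in the mutant. Of 12 genes of the family compared there, 1 was called higher and 0 lower, where 2.47% and 3.27% of the 9004 genes compared were called, and the median log2 ratio was -0.16 against -0.05 for all genes. Sema3b was counted 164 times in the control and 71 times in the mutant, giving a ratio of 0.804 (0.600 to 1.07), and Sema3c 155 and 71 times, giving 0.851 (0.633 to 1.13). Plxnb2, with 431 and 194 UMIs, had a ratio of 0.836 (0.702 to 0.993), short of the fold needed. The called gene was Sema3f, which was counted 41 times (10.6 CPM) in the control and 37 times (17.8 CPM) in the mutant, a ratio of 1.68 (1.05 to 2.68). Its 5 richest cells held 31.7% of control and 35.1% of mutant UMIs, and it was called in 6 of 13 alternatives.

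Some of these values turned on which cells were used. With cells limited to those with an Xist UMI and no Y-linked UMI (called Xist cells here), Sema3b in RPE-like cells had 154 control and 21 mutant UMIs and a ratio of 0.569 (0.342 to 0.900), and Plxnb2 had 384 and 61 and a ratio of 0.662 (0.497 to 0.870), both past the rule. With the mitochondrial share held to 5%, Sema3b had 28 and 20 UMIs and a ratio of 1.10 (0.588 to 2.03), and Sema3f reversed, with 14 and 4 UMIs and a ratio of 0.441 (0.106 to 1.40). Sema3c was past the rule with cells over 20000 UMIs removed, at 107 and 26 UMIs and a ratio of 0.465 (0.291 to 0.719), and Sema5a without its 5 richest cells, at 94 and 31 UMIs and a ratio of 0.613 (0.395 to 0.928). With all kept cells Sema5a had 116 and 50 UMIs and a ratio of 0.801 (0.563 to 1.12). Dropping 5 cells from each library with total UMIs kept took a larger share of the smaller mutant count. This can by itself lower the ratio. Markers of retinal progenitors summed to 927 CPM in control and 1493 CPM in mutant RPE-like cells, 6 of 7 higher in the mutant, and those of the ciliary margin to 310 and 524 CPM, 5 of 5 higher. RPE markers summed to 16838 and 15123 CPM, 1 of 11 higher, and erythroid markers to 5948 and 4325 CPM, 0 of 8 higher. Photoreceptor precursor markers summed to 462 and 371 CPM, 1 of 7 higher. The part of these markers in the result was not tested.

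Below the 50 UMI limit 19 of the 31 genes remained in RPE-like cells. Chosen after its values were seen, Sema3a had 20 control UMIs (5.17 CPM) in 14 cells and 1 mutant UMI (0.480 CPM). Its ratio was 0.0929 (0.00224 to 0.581), 55% of the control UMIs came from 5 cells, and in Xist cells the interval reached 1.38. Mesenchyme-like cells have Sema3a at a far higher level, and their markers summed to 447 CPM in control and 392 CPM in mutant RPE-like cells, with 5 of 10 higher in the mutant. The part of these markers in the Sema3a value was not tested.

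**Figure D5:**
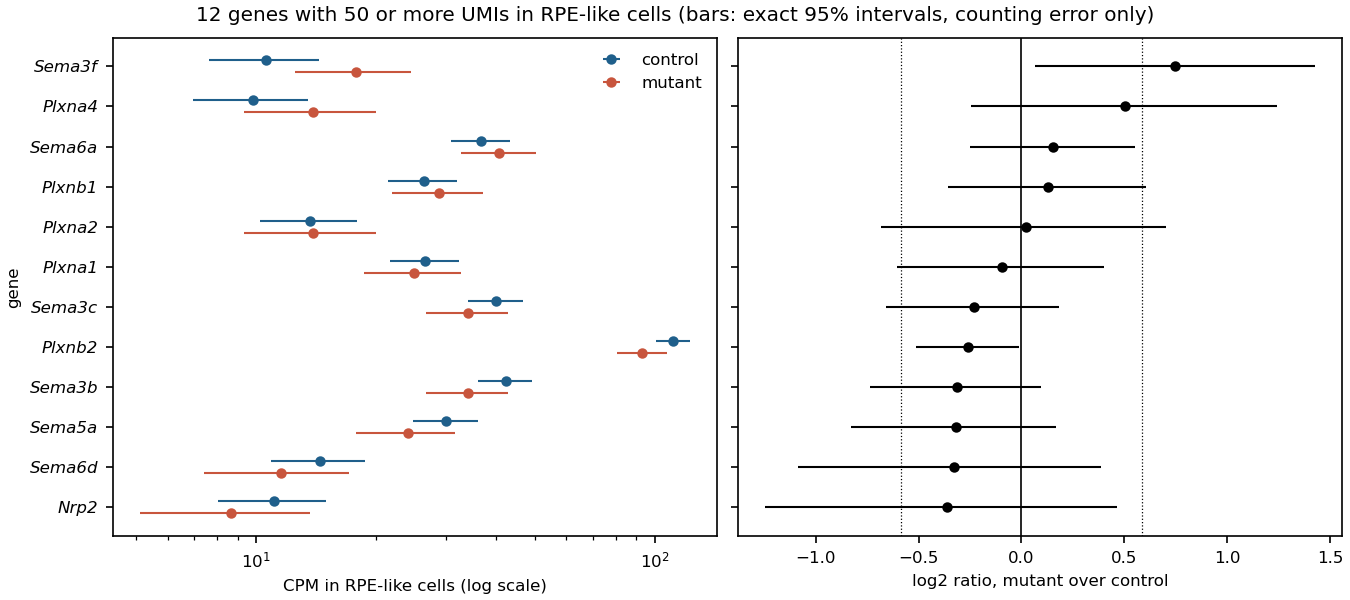
The 12 genes with 50 or more UMIs in RPE-like cells. Left, CPM in control (blue) and mutant (red) on a log scale, and right, log2 ratio of mutant to control, with exact 95% intervals that cover counting error only and dotted lines at 1.5 times. Only Sema3f lies past the dotted line with an interval clear of 0.

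In mesenchyme-like cells, 3 of 28 genes were called higher and 1 lower, against backgrounds of 3.78% and 1.29% of genes. Sema3e was the lower one. Its control count was 215 UMIs (4.95 CPM) and its mutant count 94 (2.94 CPM), a ratio of 0.593 (0.460 to 0.759), and it was called in 11 of 14 alternatives. By cluster, Sema3e was at 20.3 CPM (control) and 13.0 CPM (mutant) in cluster 4, 3.07 and 1.16 CPM in cluster 5, 2.49 and 0.366 CPM in cluster 6, and 2.11 and 1.79 CPM in cluster 8. In cluster 7 it was at 0.520 and 1.15 CPM and in cluster 15 at 2.07 and 3.93 CPM, higher in the mutant on 4 and 13 UMIs. Cluster 4, where the gene is highest, made up 18.4% of control and 15.1% of mutant mesenchyme-like cells. Over the class, erythroid markers summed to 7889 and 4999 CPM, 0 of 8 higher in the mutant, and mesenchyme markers to 14216 and 18589 CPM, 4 of 10 higher, and their part in the result was not tested.

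The genes called higher there were low ones. Sema5b had 22 and 44 UMIs and a ratio of 2.71 (1.59 to 4.75), Sema6b had 25 and 37 and a ratio of 2.01 (1.18 to 3.48), and Sema4d had 75 and 95 and a ratio of 1.72 (1.26 to 2.36). They were called in 8, 8 and 9 of 14 alternatives, and none of the 3 in Xist cells. Sema5b was not called without its 5 richest cells, nor Sema4d with doublets kept. By cluster, Sema5b had 4 control and 20 mutant UMIs in cluster 6 (0.711 and 3.66 CPM). It had 10 and 15 in cluster 5 (1.10 and 2.17 CPM) and 3 and 1 in cluster 4 (0.448 and 0.256 CPM). Cluster 6 made up 15.6% of control and 21.7% of mutant mesenchyme-like cells. Sema4d and Sema5b are the genes that peak in retinal progenitor-like cells. Retinal progenitor markers summed to 453 CPM in control and 638 CPM in mutant mesenchyme-like cells, with 7 of 7 higher in the mutant. Without cells holding a UMI of Fgf15 or Dapl1, Sema4d had 58 and 53 UMIs and a ratio of 1.43 (0.966 to 2.11), which was not called. Sema5b (48 UMIs over both libraries) and Sema6b (45) then fell short of the 50 needed, with ratios of 2.39 (1.29 to 4.50) and 1.63 (0.871 to 3.08). The part of the progenitor markers in these values was not tested.

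Plxnc1 in photoreceptor precursor-like cells was the 1 gene of 11 called lower there, where 2.19% of genes were called lower and 1.48% higher. It had 115 UMIs (48.6 CPM, 40.1 to 58.3) in the control and 106 (30.1 CPM, 24.6 to 36.4) in the mutant, and the ratio was 0.620 (0.471 to 0.814). A Plxnc1 UMI was present in 25.5% and 18.8% of all cells of the class. After thinning the 302 control and 457 mutant cells with at least 2000 UMIs to that depth, the shares were 8.94% and 5.47%. In Xist cells the ratio was 0.485 (0.302 to 0.753). With the mitochondrial share held to 5% the log2 ratio was 0.012, and the gene was called in 9 of 13 alternatives. Retinal progenitor markers summed to 634 and 986 CPM in this class, all 7 higher in the mutant, and photoreceptor precursor markers to 6503 and 7263 CPM. Erythroid markers summed to 10964 and 17846 CPM, 7 of 8 higher, and retinal ganglion markers to 363 and 277 CPM, 1 of 10 higher, and their part in the result was not tested.

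Nrp2 in retinal ganglion-like cells was the 1 gene of 21 called lower, where 1.21% of genes were called lower and 1.34% higher. It had 69 control UMIs (10.1 CPM) and 59 mutant UMIs (6.73 CPM), a ratio of 0.665 (0.462 to 0.955), but 5 cells held 50.7% of the control UMIs. Without the 5 richest cells of each library the log2 ratio was 0.073, and the gene was called in 4 of 13 alternatives. In the cluster led by Sncg Nrp2 was at 15.2 CPM in control and 7.91 CPM in mutant cells, and in the cluster led by Isl1 at 6.78 and 6.06 CPM. Retinal progenitor markers summed to 191 and 306 CPM in this class, 7 of 7 higher in the mutant. Mesenchyme markers summed to 69.0 and 126 CPM, 6 of 10 higher. Endothelial markers summed to 16.1 and 7.87 CPM, 0 of 7 higher, and erythroid markers to 4968 and 2817 CPM, 2 of 8 higher. The part of these markers in the result was not tested.

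Of the 9 genes compared in immune-like cells, Sema4a was called higher, where 2.88% of genes were called higher and 3.36% lower. It had 25 UMIs (12.3 CPM) and 58 (20.9 CPM), a ratio of 1.70 (1.05 to 2.83), and 5 control cells held 52% of the control UMIs. Without the 5 richest cells of each library the counts were 12 and 45 and the ratio was 2.74 (1.43 to 5.70). The same number of cells was dropped from each library and total UMIs were kept. This took a larger share of the smaller control count, so the setting cannot show whether the call rests on a few cells. In Xist cells the log2 ratio was -0.047. Erythroid markers summed to 706 CPM in control and 10604 CPM in mutant immune-like cells, 8 of 8 higher, and retinal ganglion markers to 226 and 79.6 CPM, 0 of 10 higher, and their part in the result was not tested. Plxna2 was the 1 gene of 16 called in neurogenic progenitor-like cells, where 1.19% of genes were called higher and 1.12% lower. It had 23 and 53 UMIs and a ratio of 1.70 (1.03 to 2.91), with 26.1% and 32.1% of UMIs in 5 cells. Erythroid markers summed to 1431 and 4231 CPM in that class, 7 of 8 higher in the mutant, and amacrine markers to 125 and 151 CPM, 5 of 6 higher, and their part in the result was not tested. Sema4a was called in 8 of 13 alternatives and Plxna2 in 6 of 13.

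No gene of the family was called in the other classes with all kept cells. Retinal progenitor-like cells allowed 21 genes (backgrounds 1.5% higher and 0.769% lower), with a median log2 ratio of 0.16 against -0.02 for all genes, and amacrine or horizontal-like cells 15 (1.58% and 1.37%). Endothelial-like cells allowed 9 (2.43% and 2.5%), among them Plxnd1 at a log2 ratio of 0.20, and muscle-like cells 8 (3.58% and 1.86%). In erythroid-like cells no gene reached 50 UMIs, and the background there was 40% higher and 1.56% lower. X-linked Plxna3, for which the sex of the embryos could matter, had ratios of 0.922 to 1.33 in the 6 classes where it was compared, and none was called with all kept cells. In Xist cells it was called higher in amacrine or horizontal-like cells, with 60 and 42 UMIs and a ratio of 1.92 (1.26 to 2.90), and also there with the mitochondrial share held to 5%, with 14 and 40 UMIs and a ratio of 1.96 (1.04 to 3.89). Plxna3 in Xist cells of the RPE-like class had 15 and 11 UMIs, under the limit, and a ratio of 3.06 (1.27 to 7.13).

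Over all classes, 27 pairs were called under an alternative though not with all kept cells, 13 higher and 14 lower, and 24 of them in 1 alternative alone. In the 10 classes other than erythroid-like cells, the share of the family's pairs called higher ran from 1.45% to 5.04% over the 13 alternatives that left pairs to compare, and the share over all genes from 1.9% to 2.53%. The shares called lower ran from 1.23% to 5.26% and from 1.53% to 2.55%, with the highest of both in Xist cells. The exceptions were Sema4d in neurogenic progenitor-like cells, higher in 3 alternatives with ratios of 1.51 to 1.53, and Plxna3 and Plxna4 in amacrine or horizontal-like cells, each higher in 2, with ratios of 1.92 to 1.96 and 1.59 to 1.69. The pairs called in 1 alternative were Sema3a, Sema3b, Sema3c, Sema5a and Plxnb2 (lower) in RPE-like cells, Nrp2 (lower) and Sema3f (higher) in amacrine or horizontal-like cells, and Plxna2 (lower) and Sema3g (higher) in endothelial-like cells. They also included Sema4d (lower) in immune-like cells, Plxna1 (lower), Nrp2 and Plxnb2 (higher) in muscle-like cells, Sema6a (higher) and Sema6c (lower) in neurogenic progenitor-like cells, and Sema3a (lower) in photoreceptor precursor-like cells. The rest were Sema3e and Sema6b (higher) and Sema5a and Sema7a (lower) in retinal ganglion-like cells, Nrp1 and Sema3c (higher) and Sema4b (lower) in retinal progenitor-like cells, and Plxnb1 (higher) in erythroid-like cells.

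Beyond the family itself, 40 genes tied to semaphorin and plexin signalling were examined as a list. Among them were collapsin response mediators (Crmp1, Dpysl2 to Dpysl5), MICAL enzymes, small GTPases and their regulators, adhesion co-receptors and kinases. The list thus mixes partners at the membrane with genes downstream of plexins, and its calls do not measure plexin signalling. RPE-like cells allowed 22 of the 40 genes, with 0 called higher (background 2.47%) and 2 lower (background 3.27%). The median log2 ratio of these 22 was -0.06. Nrcam, an adhesion molecule that joins neuropilin complexes, was counted at 81 control UMIs (20.9 CPM) against 21 mutant UMIs (10.1 CPM), a ratio of 0.482 (0.283 to 0.786). Rras2, a relative of the Ras proteins on which plexins act, had 93 and 32 UMIs and a ratio of 0.639 (0.414 to 0.965). Counts of the list called higher and lower elsewhere stand here with the same 2 shares over all genes. They were 0 and 0 of 34 in retinal progenitor-like cells (1.5% and 0.769%), 0 and 0 of 29 in retinal ganglion-like cells (1.34% and 1.21%) and 2 and 0 of 36 in mesenchyme-like cells (3.78% and 1.29%). Amacrine or horizontal-like cells gave 2 and 1 of 27 (1.58% and 1.37%), endothelial-like cells 1 and 1 of 23 (2.43% and 2.5%) and immune-like cells 0 and 3 of 17 (2.88% and 3.36%). The counts were 0 and 0 of 20 in muscle-like cells (3.58% and 1.86%), 1 and 0 of 27 in neurogenic progenitor-like cells (1.19% and 1.12%) and 0 and 1 of 23 in photoreceptor precursor-like cells (1.48% and 2.19%). In erythroid-like cells they were 2 and 0 of 5 (40% and 1.56%).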

How the data were processed

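Cells from e15.5 eye cups of 1 control and 1 mutant pool were counted with 10x 3′ chemistry, and each library's file holds UMI counts by gene and barcode as the authors deposited them, not normalized. The submitters' processing notes name Cell Ranger 7.1.0 and Seurat 4.1.1, while the matrix headers give software version 3.1.0. From these counts, cells with at least 200 genes and at most 15% mitochondrial UMIs were kept, and Scrublet (expected rate 10%) removed 424 control and 442 mutant cells as doublets. Clustering used scanpy 1.11.5 with 1879 variable genes, 30 components, 15 neighbours and Leiden resolution 1, with the 31 genes, all marker genes, pathway genes, haemoglobin, mitochondrial, Xist and Y-linked genes held out. Of 33 clusters, 29 were named from marker lists with a minimum score of 1 that was set after the scores were seen, and 4 of low depth, with 22.5% of kept control cells, stayed unnamed. Clusters scoring for pericytes were merged with mesenchyme, and amacrine with horizontal ones. UMIs were summed per class and library and given as CPM with exact Poisson intervals. Ratios of mutant to control have exact conditional binomial intervals and shares of cells have exact binomial ones, all at 95% (scipy 1.17.1). Intervals cover counting error only. The ratio script was tested on simulated data. The genes given in full were the 3 highest in each class, those called, Sema3b and Sema3c, and the peak class of each receptor family. The members and lists were chosen with earlier results of these data known. Promoter windows came from RefSeq.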

Additional observations from a re-analysis of the deposited data

Results flagged for a closer look

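Sema3b in surface epithelium-like cells, a class too small for the comparisons above, had 12 control UMIs (8.12 CPM) and 44 mutant UMIs (23.2 CPM), a ratio of 2.86 (1.49 to 5.95). The UMIs came from 3 of 85 control cells and 10 of 111 mutant cells, so a few cells decide the value. It was 1 of 12 genes of the family with 50 or more UMIs in this class, and no share over all genes was computed for the class.

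A Y-linked UMI was found in 41.7% of kept mutant cells and in 3 control cells, and an Xist UMI in 27.4% and 71.7%. Genotype and sex of the pooled embryos cannot be told apart between whole libraries.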

How the results depend on the processing

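No paired analysis was possible because each genotype was 1 library. Leaving out a replicate was not possible for the same reason, and no value here has a check against other embryos. Values for a class rest on marker-based names, and genes under 50 UMIs were not compared.

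Of the summary values under the alternatives, 75 kept within their limits and 15 moved. Pairs called higher, with the share over all genes in the same setting, numbered 3 of 129 with cells over 20000 UMIs removed (2.2%), 0 with cells over 2000 UMIs removed (0 pairs could be compared), 1 of 69 with cells thinned to 2000 UMIs (1.9%), 3 of 133 in Xist cells (2.02%), and 3 of 148 without mesenchyme-like cells holding a UMI of Fgf15 or Dapl1 (2.06%), an alternative added after seeing the data. Pairs called lower numbered 0 with cells over 2000 UMIs removed, 1 of 69 when thinned (1.62%), 6 of 207 at a minimum of 20 UMIs (2.04%), and 7 of 133 in Xist cells (2.55%). For RPE-like cells the genes' median log2 ratio came to -0.64 when thinned (1 gene) and to -0.33 without the 5 cells richest in each gene. The latter setting dropped 5 cells from each library whatever its size and kept total UMIs, so the trim alone can move its ratios. In retinal ganglion-like cells the median was 0.072 with cells over 20000 UMIs removed and 0.026 when thinned. In mesenchyme-like cells the median was -0.017 in Xist cells. With cells over 2000 UMIs removed, 11 of 25 genes had the same highest class in both libraries, and no medians could be given. Thinning used only cells with at least 2000 UMIs, and fewer UMIs were left to compare in each of the depth settings.

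Among single genes 853 values kept within their limits, 218 moved and 5 turned direction. Nrp2 in retinal ganglion-like cells, log2 ratio, came to 0.39 once cells over 20000 UMIs were left out and to 0.073 without the 5 richest cells. Plxnc1 in photoreceptor precursor-like cells, log2 ratio, was 0.012 and Sema3f in RPE-like cells, log2 ratio, was -1.18 with the mitochondrial share held to 5%. Sema4a in immune-like cells, log2 ratio, was -0.047 in Xist cells. The cause was not tested.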
